A study of Mus musculus with 36 samples.

Results

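The mitochondrial ribosomal protein genes were taken as every probe whose gene symbol begins with Mrpl or Mrps followed by a number. They comprised 105 of the 25697 probes and 72 of the 18138 genes on the array, and all 72 symbols are current RefSeq symbols. By the place of their products in the mammalian mitochondrial ribosome, 46 genes belong to the large subunit, Mrps18a and Mrps30 among them, and 26 to the small subunit. A gene was tested through its brightest probe when that probe had a mean log2 value over all 36 arrays above 4.72, the median of all probes. Of the 72 genes, 66 passed, with 85 probes, and they are called the members below. The 10291 genes that passed over the whole array are the background for each share given. Mrpl39, Mrpl32, Mrpl19, Mrpl21, Mrps14 and Mrpl45 did not pass, at means between 4.39 and 4.70. Mrpl45 (4.70) lay just outside the limit and Mrps2 (4.81) just inside. Of the 66 members, 1 passed through a single genotype, Mrpl35, with a mean of 5.21 over the RAG1-/- arrays and of 4.50, below the limit, over the WT arrays. A higher level in RAG1-/- was therefore built into its being tested, and it is 1 of the members counted as higher at each day below.

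RNA was measured in male WT mice (C57BL/6N) and in RAG1-/- mice on the same strain, which are homozygous knock-outs of recombination activating gene 1 and have no mature T and B cells, all 8 weeks old. D0 is intact femur as the study describes it, although the labels name the same callus tissue for all samples, and D3, D7, D14, D21 and D28 are callus after a closed femoral fracture with a pin in both genotypes. For each of the 12 groups, RNA of 5 mice was pooled and put on 3 Illumina MouseRef-8 v2 arrays. The 3 arrays of a group are therefore technical, and p-values within a day measure the spread between arrays of a pool and not between mice. In pooled tissue, fewer cells of a type and less RNA per cell cannot be told apart.

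The mitochondrial ribosome translates the messages encoded by mitochondrial DNA, which specify subunits of the respiratory chain and of the ATP synthase. Its RNAs are transcribed inside the organelle, whereas all of its proteins are encoded in the nucleus, made in the cytosol and imported. Some of these proteins descend from bacterial ribosomal proteins, and others were added in the mitochondrial lineage. Muscle fibres are rich in mitochondria, and mature red cells have none.

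Arrays of a WT pool were less alike than arrays of a RAG1-/- pool. Over the 66 members, the correlation between arrays of a group was 0.923 to 0.973 in WT, apart from D14 with up to 0.996, and 0.986 to 0.996 in RAG1-/-. Of the WT D14 arrays, replicate 1 was closest to the WT D21 pool over the members (r = 0.981), whereas replicates 2 and 3 were closest to the RAG1-/- D21 pool (r = 0.984 and 0.987). All 6 tested erythroid markers were lower in RAG1-/- at D0, D3 and D7, with median log2 differences of -5.72, -4.43 and -4.72. Their summed linear signal was 60660 to 70510 in WT at these days and 1711 to 2187 in RAG1-/-. All 8 skeletal muscle markers were tested, with group medians of 10.98 to 13.26, and 11 of 14 bone matrix markers were tested, with group medians of 8.69 to 12.10. Of the mature lymphocyte markers on the array, 1 of 7 for T cells and 1 of 6 for B cells passed the filter, and the group means of these 2 genes were at 4.32 to 5.60.

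The members spanned most of the range of the array. The brightest, over all arrays, were Mrps34 (11.42), a small subunit protein without a bacterial counterpart, Mrpl23 (10.98), the homolog of bacterial L23 at the exit of the peptide tunnel, and Mrps24 (10.81), the homolog of bacterial S3. Levels of different genes come from different probes and are not compared further. Between the 6 pools of a genotype, a member ranged by a median of 1.21 on the log2 scale in WT and of 0.61 in RAG1-/-. The range was wider in WT for 60 of 66 members, as for 85.8% of all tested genes. The lowest group mean fell in WT D3 for 22 members, in WT D7 for 14 and in RAG1-/- D21 for 10. The highest fell in WT D28 for 17 and in WT D0 for 11. Group means were below the 4.72 limit for 9 of 66 members in WT D3 and 8 in WT D7, beside 16.9% and 16.8% of all tested genes. This held for at most 1 member in any RAG1-/- group, beside 15.7% to 17% of all tested genes.

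**Figure D1:**
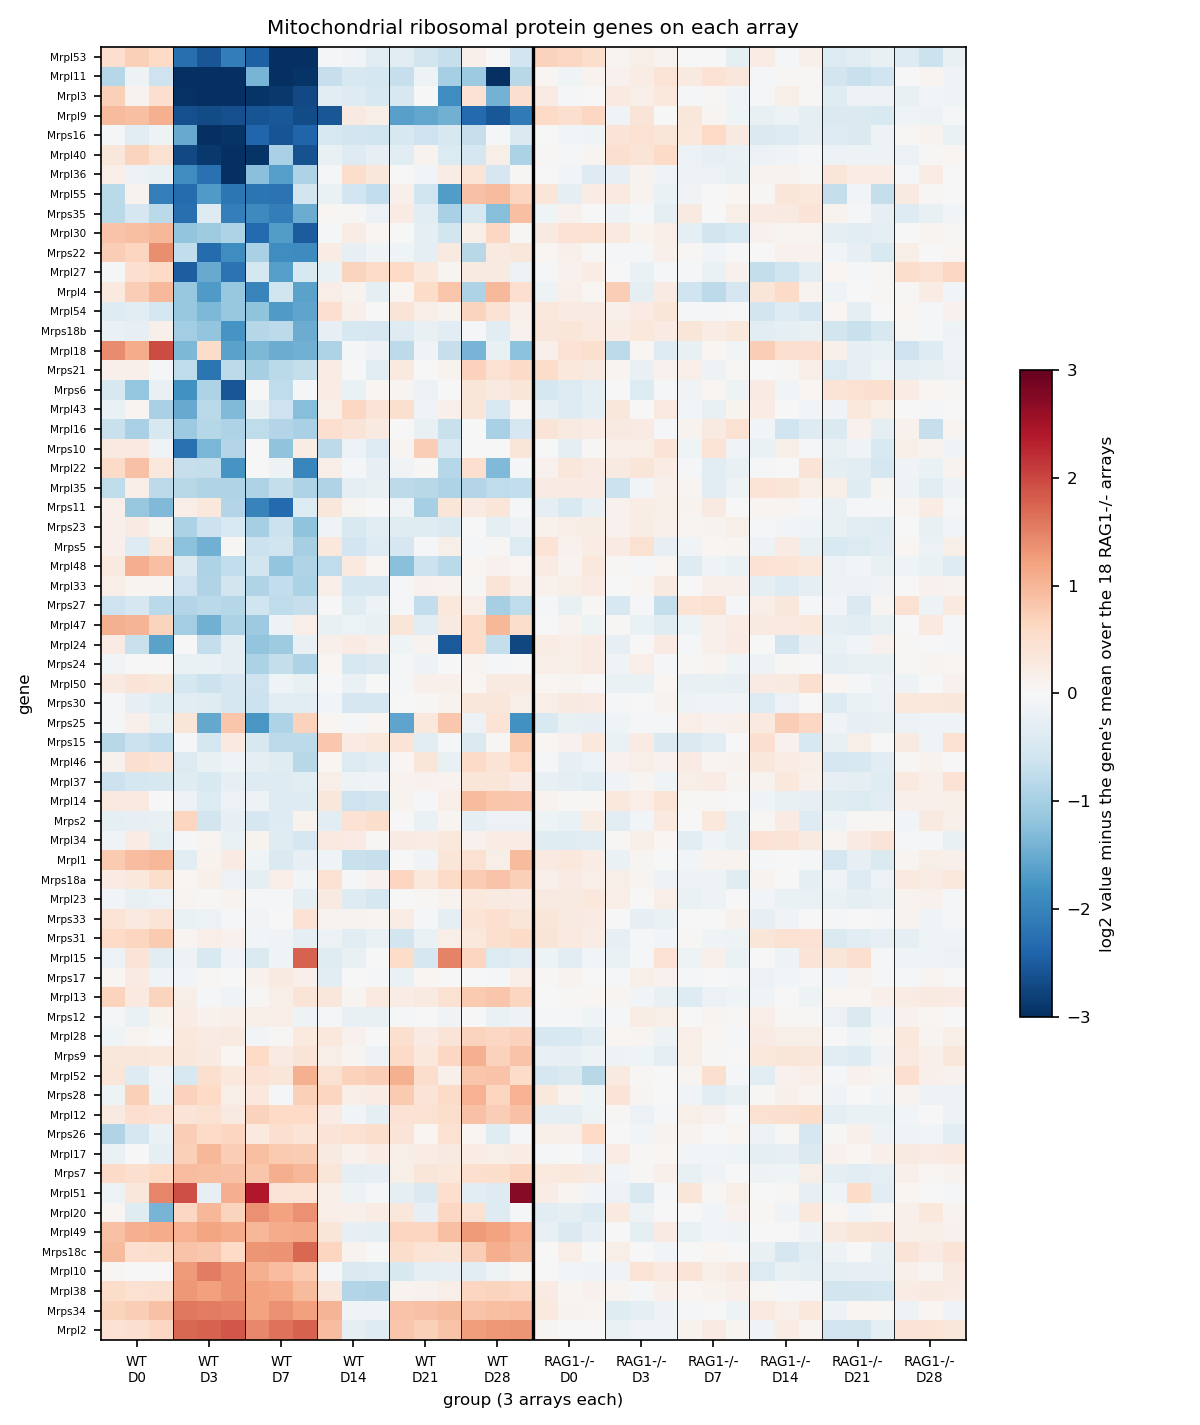
Each row is 1 of the 66 members and each column 1 of the 36 arrays, grouped by genotype and day. Colour is the log2 value minus the gene's mean over the 18 RAG1-/- arrays, with values beyond 3 either way shown in the end colours, and genes are sorted by their mean in WT D3 and D7. In WT D3 and D7 the upper rows are blue and the lowest rows red, WT D14 replicate 1 differs from its neighbours, and the RAG1-/- columns vary little.

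In WT callus the members moved early and mostly downward. Against intact WT bone, 32 of 66 members fell and 8 rose at D3, with a median difference of -0.44, where 21.0% of all tested genes fell and 24.0% rose. The median over all tested genes was 0.09. At D7, 30 members fell and 10 rose, with a median of -0.41, against backgrounds of 21.0% and 23.2%. At D14, 20 fell (11.8% of all) and 9 rose (16.6%), and at D21, 12 fell (11.3%) and 7 rose (12.5%). At D28 the balance was turned, with 7 members lower (13.6%) and 16 higher (11.8%) than in intact bone.

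The falls reached the floor of the array for several members of the large subunit. Mrpl3, the homolog of bacterial L3 near the peptidyl transferase centre, read 8.10, 7.49 and 7.91 in the arrays of intact WT bone and 4.44, 4.37 and 4.34 at D3. It fell by 3.45 on the log2 scale (SE 0.34, adjusted p = 2.07e-09). Members named for the size of a difference, here and below, were chosen among those whose groups did not overlap. Their lack of overlap is therefore no added support. Mrpl9, the homolog of bacterial L9, went from 7.90, 7.84 and 7.99 to 4.29, 4.26 and 4.29 at D3 and to 4.34, 4.40 and 4.24 at D7. These differences were -3.63 and -3.58 (SE 0.38 each, adjusted p = 5.39e-09 and 6.96e-09), and all 6 callus arrays lay below every array of intact bone. Mrpl53, a large subunit protein of the mitochondrial lineage, stood at 9.54, 9.75 and 9.63 at D0 and at 6.59, 4.35 and 4.73 at D7. It fell by 4.42 (SE 0.31, adjusted p = 1.71e-12), although its 3 D7 arrays did not lie close together. Because values near the floor cannot go lower, these differences are limited by the array.

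Other members rose in the same WT pools. Mrpl20, the homolog of bacterial L20, was at 7.39, 6.97 and 5.94 at D0 and at 8.70, 8.54 and 8.69 at D7, a rise of 1.88 (SE 0.25, adjusted p = 2.97e-07). Mrpl10, which anchors the stalk of the large subunit where translation factors bind, rose from 9.79, 9.72 and 9.71 to 11.00, 11.27 and 11.08 at D3, by 1.37 (SE 0.14, adjusted p = 1.97e-09). Mrpl12, the mobile protein of the same stalk, differed by -0.02 between WT D3 and D0 (adjusted p = 0.889). Mrpl11, from the base of the stalk, fell by 2.82 at D3 (SE 0.40, adjusted p = 1.1e-06). The 3 stalk proteins thus gave 3 different readings in the same pools. Mrpl55, of the large subunit, rose by 1.74 at D28 (SE 0.42, adjusted p = 0.00277), from 5.79, 6.72 and 4.54 to 7.48, 7.55 and 7.25.

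In the same WT pools, 7 of 8 skeletal muscle markers fell at D3 (median -1.24) and 6 of 8 at D7 (median -0.93), and 3 of 4 tested cell cycle markers fell at both days. Their summed linear signals for muscle were 105700 to 108800 at D0, 55300 to 59610 at D3 and 57000 to 63110 at D7. These sums include Mylpf, whose mean went from 14.27 at D0 to 4.80 and 5.04 at D3 and D7, near the floor. The other markers moved less than Mylpf, as Actn3 (13.18, 10.52 and 10.55), Myh1 (9.72, 8.07 and 8.78) and Myh4 (11.47, 10.34 and 11.30). Those that moved least at D3 were Acta1 (14.70, 13.96 and 14.09) and Pvalb (15.04, 14.97 and 14.93). Pvalb lay near the highest value of the data, 15.23. What these cells contribute to the members' values was not tested.

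To show what lies before members that fell or rose, stretches of 90 bases from the RefSeq promoter table (GRCm38.p6) follow, for 3 members that fell in WT (Mrpl3, Mrpl53, Mrpl9), 1 that rose on its brightest probe (Mrps26, of the small subunit) and 1 lower in RAG1-/- at every day (Mrps18c, 1 of the mammalian homologs of bacterial S18). Of the 72 genes, 63 have a window in that table, from 250 bases before to 50 after the start. Capitals mark CCGGAAG, a core recognised by ETS family factors such as GABP, or its reverse complement CTTCCGG, and in Mrpl9 GCGCATGCG, a core bound by NRF1, which overlaps its own reverse complement there. The stretches are chr9:105053178-105053267, chr6:83109018-83109107, chr3:94443246-94443335, chr2:130563667-130563756 and chr5:100798569-100798658, in the order printed, all on the plus strand. All end 1 base before the start, except that of Mrps18c, which lies further upstream, around its match. Each stretch shown holds a marked motif, so the stretches do not represent the 63 windows or show how common the motifs are.
Mrpl3: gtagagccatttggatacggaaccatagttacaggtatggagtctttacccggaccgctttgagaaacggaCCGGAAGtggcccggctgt
Mrpl53: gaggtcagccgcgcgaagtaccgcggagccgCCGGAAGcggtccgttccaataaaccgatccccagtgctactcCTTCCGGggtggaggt
Mrpl9: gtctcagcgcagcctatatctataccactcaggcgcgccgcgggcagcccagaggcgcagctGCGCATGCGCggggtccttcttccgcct
Mrps26: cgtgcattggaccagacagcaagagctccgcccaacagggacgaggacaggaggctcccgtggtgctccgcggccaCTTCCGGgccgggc
Mrps18c: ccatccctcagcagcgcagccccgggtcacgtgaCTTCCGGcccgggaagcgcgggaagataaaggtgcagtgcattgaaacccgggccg

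Searched on both strands, CCGGAAG was present in 24 of the 63 windows (38.1%), beside 9.93% of the 27025 genes with a window. AAGATGGC, the element of YY1, was in 11 (17.5%, beside 3.19%), GCGCATGCG in 7 (11.1%, beside 1.95%) and TGACCTTGA, the element of oestrogen-related receptors, in 0 (beside 0.466%). GCGCATGCG was shortened from a longer form after the count of that form had been seen. The shortening raised its share in members and in all genes, so its excess in members is not that of a motif fixed beforehand. The last 3 letters of CCGGAAG can serve as the first 3 of AAGATGGC, so matches of these can share bases. Members of both directions carried the ETS core. Among members with a window, it was found in 12 of 29 that were higher in RAG1-/- than in WT at D3 (41.4%). Of those that were lower, 3 of 10 carried it (30.0%). A match is a description of the letters in the window only.

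In RAG1-/- callus few members passed the test. The fit used 1 spread per gene for all groups. Over the members, the root mean square SD between arrays was 0.12 to 0.19 in RAG1-/- groups and 0.34 to 0.52 in WT groups. Changes within RAG1-/- were therefore tested against a spread wider than their own, and small ones could be missed. Conversely, changes within WT were mostly tested against a spread narrower than their own, so their SEs and p-values in limma can be too small. For Mrpl53 the SD between arrays was 1.20 in WT D7 and 0.14 in RAG1-/- D7. The numbers of calls in WT and in RAG1-/- are therefore not on an equal footing. Against intact RAG1-/- bone, 2 of 66 members rose and 2 fell at D3, beside 5.82% and 6.36% of all tested genes, and 3 rose and 1 fell at D7, beside 6.75% and 5.70%. Those at D3 were Mrpl28 (0.42) and Mrpl34 (0.45), which rose, and Mrps31 (-0.43) and Mrps33 (-0.44), which fell. These calls were fragile, since the count was 0 to 2 when any 1 of the 6 arrays was left out, and 2 when arrays were centred on their medians. With centring, the D7 counts became 3 higher and 5 lower. At D14, 5 rose (7.08% of all) and 7 fell (7.02%). D21 stood apart, with 4 higher (10.3%) and 13 lower (10.0%) and a median of -0.25, and at D28, 6 were higher (7.67%) and 3 lower (6.70%). At D21, 6 of 8 skeletal muscle markers also fell in these pools (median -0.65), and their part in the members' values was not tested.

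The members that moved most in RAG1-/- did so by about 1 on the log2 scale. Mrpl53 read 9.72, 9.66 and 9.57 in intact RAG1-/- bone, 9.02, 9.02 and 8.77 at D7 and 8.65, 8.40 and 8.81 at D28. It fell by 1.03 at D28 (SE 0.31, adjusted p = 0.0213), and at D7 the RAG1-/- arrays lay above all 3 WT arrays. Mrps18b, another of the S18 homologs, fell by 0.89 at D21 (SE 0.17, adjusted p = 0.000217), from 9.11, 9.13 and 9.07 to 8.23, 8.10 and 8.30. Mrpl30, the homolog of bacterial L30, fell by 0.81 at D7 (SE 0.17, adjusted p = 0.0011). Mrps6, the homolog of bacterial S6, rose by 0.86 at D21 (SE 0.26, adjusted p = 0.0176), and Mrpl52, of the mitochondrial lineage, by 0.85 at D28 (SE 0.24, adjusted p = 0.0168). Mrpl12 rose by 0.72 at D14 (SE 0.12, adjusted p = 3.63e-05), from 10.31, 10.31 and 10.42 to 11.03, 11.05 and 11.12.

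The change after fracture itself differed between genotypes for 34 of 66 members at D3, where 31.5% of all tested genes did, by the interaction test of limma. In 26 of them the change was higher in RAG1-/- and in 8 lower. At D7, 28 members differed (28.5% of all), 20 of them toward higher change in RAG1-/-. The shares of all tested genes by direction are not given, so these splits have no background beside them. Later the counts were 16 at D14 (15.9%), 7 at D21 (12.7%) and 7 at D28 (13.2%). Among the wide differences were those of Mrpl40 (3.79), of the mitochondrial lineage, and Mrpl3 (3.63) at D3, and of Mrpl53 (3.70) at D7. All WT D3 arrays of Mrpl3 and most WT arrays of the others at these days were near the floor, so these values have no order among themselves.

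Compared directly at D3, 32 members were higher in RAG1-/- and 12 lower, beside 26.1% and 23.5% of all tested genes. The median was 0.37 over the members and -0.05 over all. By more than 2-fold, 22 were higher and 5 lower, beside 33.8% of all genes in either direction. At D7, 28 were higher (27.2% of all) and 13 lower (21.4%), with a median of 0.43, and 17 and 6 passed 2-fold (31.1%). These comparisons use the same WT D3 and D7 arrays as those against intact WT bone above. Of the 41 large subunit members, 23 were higher and 7 lower at D3, with a median of 0.43, whereas of the 25 small subunit members 9 were higher and 5 lower, with a median of 0.08. At D7 the small subunit had 10 higher and 5 lower and a median of 0.37, beside 18, 8 and 0.51 for the large subunit. The difference between the subunits was not tested. Members with a bacterial homolog (19 higher and 8 lower of 42 at D3) and those of the mitochondrial lineage (12 and 4 of 22) had medians of 0.32 and 0.41. In the same comparisons, 7 of 8 skeletal muscle markers were higher in RAG1-/- at D3 (median 1.04) and 5 at D7 (median 0.65), and all 6 erythroid markers were lower. The part of these cells in the members' differences was not tested.

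**Figure D2:**
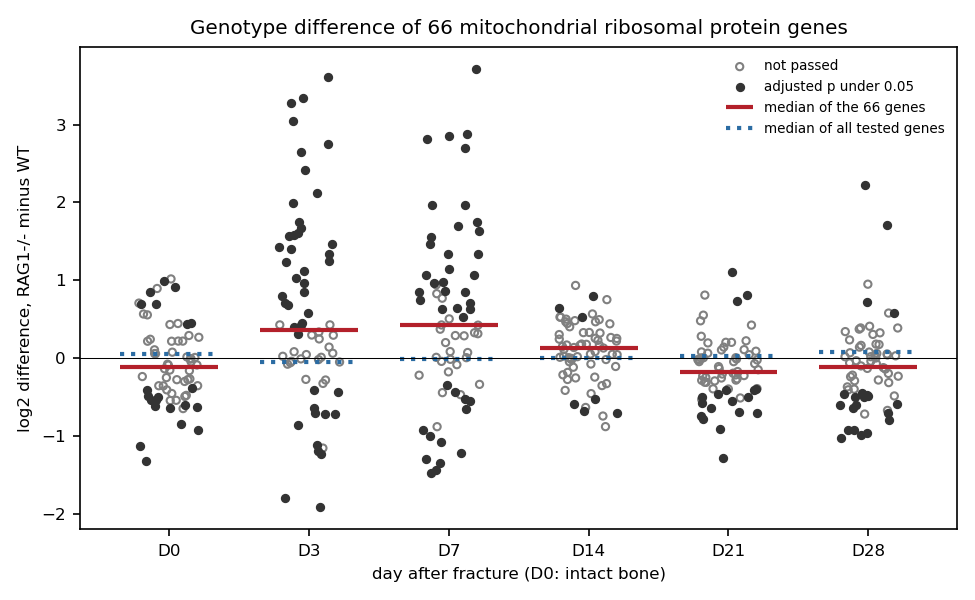
Each point is the log2 difference of 1 of 66 members between RAG1-/- and WT at a day, filled where the adjusted p was under 0.05, with the median of the members (red) and of all tested genes (dotted blue). At D3 and D7 the members' medians of 0.37 and 0.43 lie above those of all genes and single members exceed 3, whereas at D14 few points are filled.

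Mrpl11 read 8.01, 8.09 and 8.28 in RAG1-/- and 4.49, 4.43 and 4.61 in WT at D3, a difference of 3.62 (SE 0.40, adjusted p = 1.55e-08). Mrpl40 differed by 3.34 at D3 (SE 0.29, adjusted p = 1.73e-10), with 8.01, 7.92 and 8.10 in RAG1-/- and 4.82, 4.64 and 4.55 in WT. In both, the WT arrays were near the floor and the RAG1-/- arrays far above it. Mrps16, the homolog of bacterial S16, differed by 2.85 at D7 (SE 0.26, adjusted p = 6.35e-10), with 8.59, 8.86 and 8.52 in RAG1-/- and 5.89, 5.67 and 5.85 in WT. Among the members lower in RAG1-/-, Mrpl2, the homolog of bacterial L2 at the core of the large subunit, read 8.91, 9.00 and 8.99 against 10.81, 10.87 and 10.95 in WT at D3. It was lower by a log2 difference of -1.91 (SE 0.19, adjusted p = 3.09e-09), and at D7 by -1.47 (SE 0.19, adjusted p = 3.77e-07). Mrps34 differed by -1.80 at D3 (SE 0.18, adjusted p = 2.34e-09), with 10.60, 10.67 and 10.80 in RAG1-/- and 12.52, 12.49 and 12.45 in WT. Mrpl38, of the central protuberance of the large subunit, differed by -1.23 (SE 0.18, adjusted p = 2.44e-06). In none of these 6 genes did the groups overlap, which was a condition for naming them.

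Genes with several probes showed how far a reading depended on the probe. Of the 72 genes, 21 had more than 1 probe, and 16 had more than 1 tested probe. In WT between D0 and D3, the brightest and second brightest probes of these 16 genes differed by a median of 1.59 in their log2 change, and in RAG1-/- by 0.24. Mrps33, a small subunit protein of the mitochondrial lineage, had the widest gap. Its brightest probe read 10.02, 9.92 and 10.04 in WT D0 and 9.43, 9.45 and 9.58 in WT D3, whereas its second probe read 8.48, 8.36 and 8.40, then 6.34, 4.72 and 4.52. In RAG1-/- the D3 differences of the probes were -0.44, which passed, and -0.51, which did not. For the second probe the SD between arrays was 0.06 in RAG1-/- D0 and 0.05 in RAG1-/- D3, beside 1.00 in WT D3, and the fit used 1 spread for all groups. Mrps7, the homolog of bacterial S7, rose by 0.34 on its brightest probe and fell by 1.81 on the second between WT D0 and D3, both past the test in a fit of all tested probes, and Mrps26 rose by 1.18 and fell by 1.21. In WT both probes passed for 10 of the 16 genes at D3, in opposite directions for 2 of them, and for 8 at D7, in opposite directions for 3. Gaps and counts over all 2021 genes with several tested probes are not given. Whether such disagreement is particular to the members was therefore not tested. In RAG1-/- both passed for only 1 gene at D3 and 0 at D7, too few to compare directions. Mrpl48, also of the central protuberance, had the smallest gap at D3 in WT, with -1.46 and -1.89.

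This bears on the genotype comparison of those genes. At D3, the difference of Mrps33 was -0.01 on its brightest probe (adjusted p = 0.966) and 2.33 on its second, and that of Mrps7 was -0.86 and 2.15. In a fit where the second brightest probe stood for every gene with several tested probes, 35 members were higher in RAG1-/- and 10 lower at D3. At D7 they were 30 and 12. The shares of all tested genes under that setting are not given, so these counts have no background beside them. Mrpl3 differed by 3.28 on its brightest probe at D3 and by 0.52 on its second, which did not pass (adjusted p = 0.12). Across the 6 pools of a genotype, the 2 probes of a gene followed each other at r = -0.76 (Mrps7) to 0.95 (Mrpl10 and Mrpl33) in WT and at -0.43 (Mrps11) to 1.00 (Mrps31) in RAG1-/-, each over 6 pools that share the arrays.

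**Figure D3:**
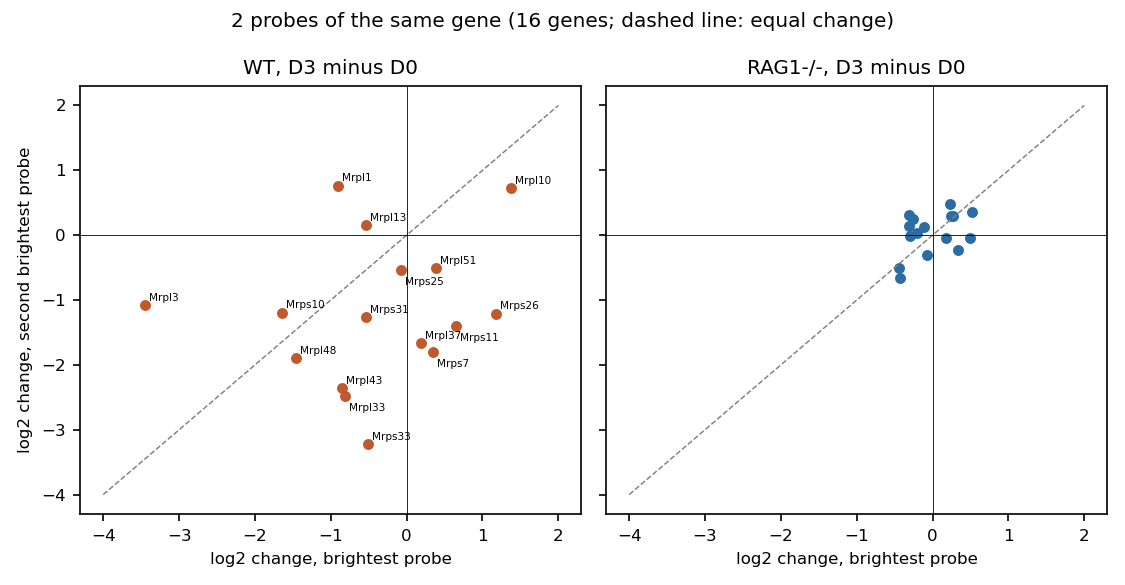
Each point is 1 of 16 genes, with the log2 change from D0 to D3 of its brightest probe (horizontal) and second brightest probe (vertical), for WT on the left and RAG1-/- on the right. The RAG1-/- points lie near 0, whereas the WT points spread far from the dashed line of equal change, Mrps33 at -0.51 and -3.22.

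In intact bone, 7 members were higher in RAG1-/- and 14 lower (12.8% and 7.39% of all tested genes), with a median of -0.11, and 2 passed 2-fold, both lower (9.56% of all in either direction). Mrpl49, of the mitochondrial lineage, read 7.66, 7.46 and 7.64 in RAG1-/- and 8.78, 8.96 and 9.01 in WT, a difference of -1.33 (SE 0.14, adjusted p = 4.78e-08). Mrpl18, which contacts the structural RNA of the central protuberance, differed by -1.13 (SE 0.37, adjusted p = 0.0308) and Mrpl47, the homolog of bacterial L29, by -0.92 (SE 0.23, adjusted p = 0.00386). Higher in RAG1-/- were Mrpl16 (0.99, SE 0.22, adjusted p = 0.00173), the homolog of bacterial L16, Mrps15 (0.91, SE 0.27, adjusted p = 0.016), the homolog of bacterial S15, and Mrps26 (0.85, SE 0.16, adjusted p = 0.000341). The WT arrays of Mrpl16 and Mrps15 were near the floor, at 4.28 to 4.91. Arrays of the 2 genotypes did not overlap in any of the 6 genes, which was a condition for naming them. At this day 7 of 11 bone matrix markers were higher in RAG1-/- and 3 lower, and all 4 cell cycle markers were lower, and their part was not tested. With 1 array left out at a time, 13 to 18 members passed at D0 rather than 21, with 13 when RAG1-/- replicate 3 was left out.

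At D14 the genotypes differed least, with 3 members higher and 4 lower in RAG1-/- (2.65% and 2.00% of all tested genes) and 0 past 2-fold (1.11%). The count rested on the WT arrays. Without WT replicate 1, 11 members were higher and 5 lower. The shares of all tested genes under that setting are not given, so the shift is not shown to be particular to the members. Mrps34 read 11.97, 10.84 and 10.81 in the WT D14 arrays and 11.24, 11.11 and 11.27 in RAG1-/-. The WT array set apart thus lay above all RAG1-/- arrays, and WT replicates 2 and 3 lay below them. Mrpl9 was split the same way in the other direction, with 4.36 in WT replicate 1 and 7.20 and 7.12 in replicates 2 and 3, around 6.71, 6.77 and 6.68 in RAG1-/-. Mrps31, of the mitochondrial lineage, was higher in RAG1-/- by 0.65 (SE 0.13, adjusted p = 0.00298), with 8.95, 9.03 and 9.01 against 8.41, 8.25 and 8.38. Mrpl54, also of that lineage, was lower, with a difference of -0.71 (SE 0.15, adjusted p = 0.00336), as was Mrps26 (-0.68, SE 0.16, adjusted p = 0.0127). The differences of Mrps31 and Mrpl54 passed the test with and without replicate 1, and that of Mrps26 did not pass with replicate 1 alone (adjusted p = 0.106). Erythroid markers of the WT D14 arrays ranged from 8119 to 34280 in summed signal, and their part in the split was not tested.

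At D21 and D28 more members were lower in RAG1-/- than higher. At D21, 15 were lower and 3 higher (9.87% and 14.7% of all tested genes), with 1 past 2-fold each way (11.3%), and without WT D21 replicate 1 the count of both fell from 18 to 11. At D28, 17 were lower and 4 higher (9.91% and 19.5%), with 1 and 2 past 2-fold (15.6%). When each array was centred on the median of its tested genes, which shifted the median of all genes by -0.10 at D3, -0.17 at D7 and -0.19 at D28, the D28 split became 24 lower and 2 higher. At D21, 7 of 8 skeletal muscle markers were lower in RAG1-/- (median -0.92) and 9 of 11 bone matrix markers higher, and what they contribute was not tested. Mrpl9 was low in WT at both days, with 5.30, 5.38 and 5.50 at D21 and 4.61, 4.39 and 4.82 at D28, against 6.49, 6.51 and 6.48 and then 6.81, 6.78 and 6.90 in RAG1-/-. Its genotype differences were 1.10 at D21 (SE 0.38, adjusted p = 0.0332) and 2.23 at D28 (SE 0.38, adjusted p = 6.31e-05). Mrpl11 differed by 1.71 at D28 (SE 0.40, adjusted p = 0.0019), where 1 of its WT arrays stood at 4.64 and the others at 6.80 and 7.04. At D21, Mrpl2 differed by -1.28 (SE 0.19, adjusted p = 1.7e-05) and Mrps9, the homolog of bacterial S9, by -0.78 (SE 0.13, adjusted p = 4.07e-05). At D28, Mrps28, of the small subunit, differed by -0.98 (SE 0.21, adjusted p = 0.000703), with 8.08, 7.84 and 7.81 against 9.02, 8.64 and 9.02 in WT.

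A few members differed in 1 direction at most days. The share of all tested genes that did so is not given, so these counts have no background beside them. Mrps18c was lower in RAG1-/- at all 6 days. Mrpl49, Mrps34 and Mrps9 were lower at 5. Mrpl12 was lower at 5 days and higher at D14, by 0.53 (SE 0.12, adjusted p = 0.00488). Mrpl35, the homolog of bacterial L35, was higher at all 6, a direction favoured by its passing the filter through RAG1-/- alone. For Mrps18c, the RAG1-/- pools had means between 7.57 and 8.25 and the WT pools between 8.15 and 9.37, and within every day all 3 RAG1-/- arrays were below all 3 WT arrays. The difference was widest at D7, with 7.90, 7.97 and 7.93 in RAG1-/- against 9.22, 9.25 and 9.64 in WT (-1.44, SE 0.16, adjusted p = 1.38e-08). Mrpl35 lay near the floor in WT, with group means of 4.34 to 4.77, and between 5.00 and 5.54 in RAG1-/-, so the size of its difference is limited by the array. At D14 the calls of both genes rested on WT replicate 1, and their adjusted p without it was 0.122 for Mrps18c and 0.11 for Mrpl35.

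Over the 6 days, the pools of each day were compared as 6 pairs, the only comparison here whose spread is between pools of separate mice. No group has a second pool, so this spread also holds any change of the genotype difference from day to day. It is not a measure of the spread between mice of a group. Mrps18c (-0.75, SE 0.18, adjusted p = 0.0498) and Mrpl35 (0.72, SE 0.15, adjusted p = 0.046) passed, 2 of 66 members beside 4.49% of all tested genes. The call of Mrpl35 is no independent support, given how it passed the filter, and without the filter the adjusted p was 0.0971 for both genes. A total of 19 members had an unadjusted p under 0.05, a count without the share of all tested genes beside it. Next in order were Mrpl2 (-1.01, adjusted p = 0.0522) and Mrps34 (-0.94, adjusted p = 0.0528), both below 0 at 6 of 6 days, though at D14 by only -0.02 for Mrpl2 and less for Mrps34. The 2 calls were close to the limit. Without WT D14 replicate 1 the adjusted p was 0.095 for Mrpl35 and 0.0975 for Mrps18c, and without D3 and D7 it was 0.2 for both, with differences of 0.72 and -0.58.

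**Figure D4:**
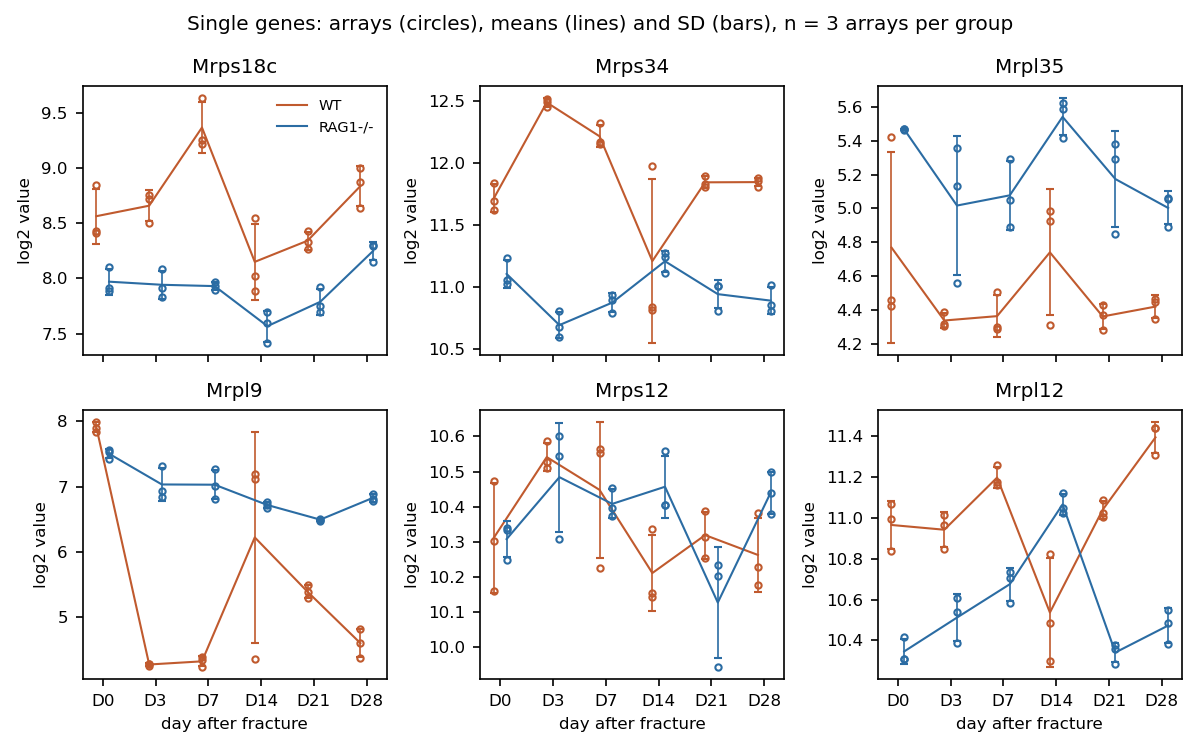
Log2 values of 6 members by day in WT (orange) and RAG1-/- (blue), with circles for the 3 arrays of a group, lines through the means and bars of 1 SD. Mrps18c is lower and Mrpl35 higher in RAG1-/- at every day, Mrps34 and Mrpl9 part at D3 and D7 in opposite directions with split WT arrays at D14, Mrpl12 is lower in RAG1-/- except at D14, and the means of Mrps12 stay between 10.13 and 10.54.

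Some members hardly moved over the days or differed little at a single day. Mrps12, the homolog of bacterial S12 at the decoding centre, had an absolute genotype difference of at most 0.25 at any day, and no difference passed. Its means ranged by 0.33 over the WT pools and by 0.36 over the RAG1-/- pools. In intact bone its arrays read 10.33, 10.34 and 10.25 in RAG1-/- and 10.30, 10.16 and 10.47 in WT. At D7 alone, Mrpl23 differed by 0.01 (adjusted p = 0.968) and Mrpl34, the homolog of bacterial L34, by 0.01 (adjusted p = 0.953). Both were named for their small difference at that day and were not flat at all days. Mrpl23 was called higher in RAG1-/- at 1 day, and its D0 means were 11.27 in RAG1-/- and 10.83 in WT. Mrpl34 rose by 0.45 in RAG1-/- at D3 and ranged by 0.72 over the RAG1-/- pools. In all, 9 of 66 members passed at no day, and 1 of the 9 was Mrps2, near the floor. The share of all tested genes that passed at no day is not given.

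The members followed each other only loosely. Over the 6 WT pools, the median correlation of the 2145 pairs of members was 0.23, with 35.8% of pairs above 0.5, beside 0.00 and 21.3% for pairs of all tested genes. Over the 6 RAG1-/- pools it was 0.11, with 23.2% above 0.5, beside 0.00 and 16.8%. Without D3 and D7, the WT median was 0.14. The pairs share arrays and genes, and no test was made.

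Of 84 further genes of mitochondrial translation that were listed, 62 were on the array and 48 were tested. At D3, 11 of the 48 were higher in RAG1-/- and 12 lower (median 0.15), and at D7, 14 and 10 (median 0.34). These were 22.9% and 25.0% of the list at D3 and 29.2% and 20.8% at D7, near the 26.1% and 23.5%, and 27.2% and 21.4%, of all tested genes. Single genes of the list differed in either direction. Tufm, the elongation factor that brings charged tRNA to the ribosome, was higher in RAG1-/- by 1.09 at D3 (SE 0.11, adjusted p = 1.44e-09), whereas Tsfm, its exchange factor, was lower (-1.17, SE 0.18, adjusted p = 2.68e-06). Among 13 tested synthetases that charge mitochondrial tRNAs, 3 were higher and 2 lower at D3. Kars, which serves cytosol and mitochondria, differed by 3.10 (SE 0.40, adjusted p = 2.25e-07) and Vars2, the valyl enzyme, by -1.62 (SE 0.24, adjusted p = 2.15e-06).

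Mitoribosome proteins that carry other symbols were also divided. Ict1, a peptidyl-tRNA hydrolase of the large subunit, differed by 1.63 at D3 (SE 0.27, adjusted p = 8.84e-06) and Dap3, of the small subunit, by -0.53 (SE 0.10, adjusted p = 6.75e-05). Of 5 tested transcription factors and coactivators of nuclear genes for mitochondria, 0 were higher and 4 lower in RAG1-/- at D3. Nrf1, nuclear respiratory factor 1, differed by -2.31 at D3 (SE 0.13, adjusted p = 2.3e-14), and its WT mean was 8.67 at D0 and 10.36 at D3. Esrra, the oestrogen-related receptor alpha, differed by -1.28 (SE 0.17, adjusted p = 2.51e-07) and Ppargc1b, its coactivator, by -1.11 (SE 0.15, adjusted p = 6.78e-07). Gabpb1, a subunit of the ETS family complex GABP, differed by -1.03 (SE 0.37, adjusted p = 0.0232), and Gabpa, Yy1 and Myc did not pass the filter.

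Beside the members, 53 tested genes of cytosolic ribosomal proteins had 36 higher and 4 lower in RAG1-/- at D3 (median 1.36), and 65 tested genes of the respiratory chain and ATP synthase had 37 and 6 (median 0.68). At D21 the cytosolic genes had 28 higher and 1 lower (median 0.57), the respiratory genes 3 and 40 (median -0.59), and the members 3 and 15 (median -0.18). In WT from D0 to D3, 29 of 53 cytosolic genes fell (median -0.88) and 46 of 65 respiratory genes (median -0.98), beside 32 of 66 members (median -0.44). No test compared these lists with each other.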

How the data were processed

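Pooled RNA of 12 groups was measured on 36 Illumina arrays, and groups were taken from the sample labels. The authors pre-processed the arrays with beadarray and quantile normalized them with lumi, and the deposited values are on the log2 scale. Between arrays, the median of these values was 4.65 to 4.66. Further tables hold 264 columns named by BeadChip position, which were not matched to samples and are not used.

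A single limma fit (limma 3.58.1 in R 4.3.3) gave each group a mean over all 10291 tested genes, with Benjamini-Hochberg adjustment over all of them and a call at an adjusted p under 0.05. Over the 6 days, the means of the 12 pools were fitted with the day as a block. Precision is set by the few arrays a group has, and the residual SD had a median of 0.389. Alternatives were the choice of probe, the filter, centring, a replicate block, a stricter limit, fits on 2 groups, the methods' t-test and leaving out arrays or days. The fit was tested on simulated data. Figures were drawn with matplotlib 3.10.9. Motifs were counted in RefSeq promoter windows matched by symbol.

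Named members were, per comparison, up to 3 in each direction with the largest difference among called members whose arrays did not overlap. Added to them were members called the same way at 5 or more days or over the 6 days, the 3 brightest, those nearest the filter, those with several probes and up to 2 with the smallest difference per comparison. Markers and other genes of the pathway came from written lists. The members, lists and rules were chosen with earlier results of these data known.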

Additional observations from a re-analysis of the deposited data

Results flagged for a closer look

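The change after fracture differed between WT and RAG1-/- by limma's interaction test for 34 members at D3, 28 at D7, 16 at D14, 7 at D21 and 7 at D28, of 66. The shares of all tested genes were 31.5%, 28.5%, 15.9%, 12.7% and 13.2%, and the members' shares at D21 and D28 (10.6% each) were below them. In the direction of a higher change in RAG1-/-, wide differences at D3 were those of Mrpl40 (3.79 on the log2 scale) and Mrpl3 (3.63), and at D7 those of Mrpl53 (3.70) and Mrpl3 (3.17). The WT arrays of these genes at those days were near the floor of the array, apart from 1 D7 array of Mrpl53 (6.59), so these values have no order. In the direction of a lower change, they were Mrps26 (-1.49) and Mrpl2 (-1.42) at D3 and Mrpl20 (-1.51) and Mrps26 (-1.18) at D7. For Mrps26 the second brightest probe changed in the opposite direction in WT. The arrays of each group were technical replicates of 1 pool, so the spread between mice is not in these tests.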

How the results depend on the processing

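Counts of called members are given as both directions together, without the shares of all tested genes, which the same settings can move. With an adjusted p under 0.01 and more than 2-fold required, the genotype counts at D0, D3, D7, D14, D21 and D28 were 1, 27, 23, 0, 1 and 3, the WT counts against D0 were 23, 20, 7, 6 and 3 from D3 to D28, the RAG1-/- counts were 0 at each day, and the interaction counts were 21, 15, 9, 2 and 2. The 2 members called over the 6 days became 0 under this limit, 0 without the filter on dim probes, 5 with every tested probe on its own, 1 with centred arrays, 6 with no day block, 9 without D14, and 0 without D0, D3, D7, D21, D28 or D3 and D7. Centring left 2 members called in RAG1-/- at D3 against D0, and 8 at D7. Centring also moved the share of higher among called members from 19.0% to 7.69% for the genotypes at D28, from 69.6% to 80.0% for WT D28 against D0, from 75.0% to 37.5% for RAG1-/- D7 against D0 and from 28.6% to 10.0% for the interaction at D28. No called member changed sign with it.

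With the second brightest probe, an alternative chosen after seeing the data, 2 members were called in RAG1-/- at D3 against D0, 4 by the interaction at D21 and 6 over the 6 days. The D3 difference of Mrps33, -0.01 on its brightest probe, was 1.16 (limma adjusted p = 1.33e-06) as the mean of its probes and 2.33 (adjusted p = 9.32e-08) on the second. At D14 the genotype count of 7 was 0 in a fit of the 2 groups and 1 by the methods' t-test after Benjamini-Hochberg adjustment. Mrps34 at D14 was -0.00 and became 0.38 (adjusted p = 0.0195) without WT D14 replicate 1 and -0.20 without replicate 3.

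With 1 array left out, the genotype counts were 13 to 18 at D0, 41 to 43 at D3, 37 to 40 at D7, 4 to 16 at D14, 11 to 15 at D21 and 17 to 21 at D28. At D14 the 16 came without WT replicate 1 and the 4 without RAG1-/- replicate 3. Against D0, the WT counts were 37 to 40, 36 to 40, 19 to 35, 15 to 21 and 16 to 22 from D3 to D28, where the 19 came without WT D14 replicate 2. The RAG1-/- counts were 0 to 2, 3 to 4, 7 to 10, 12 to 14 and 3 to 6, the interaction counts 32 to 34, 24 to 30, 14 to 21, 7 to 9 and 4 to 8, and those over the 6 days 0 to 6.

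The replicate numbers did not pair the samples, since deviations of arrays with the same number correlated at -0.03 to 0.04. With the replicate number as a block, the genotype counts were 20, 44, 41, 7, 17 and 20 from D0 to D28, the WT counts 40, 40, 28, 18 and 23, the RAG1-/- counts 4, 4, 12, 18 and 8 and the interaction counts 34, 28, 16, 8 and 7.

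Over all alternatives, values of named members kept their direction and side of the limit 851 times, lost the call 129 times, gained it 1 time and turned 3 times. Values near the floor of the array bound what a fall can show, and 3 technical arrays of 1 pool leave out the spread between mice.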
